A study of Mus musculus with 6 samples.

Results

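The lipid-making genes of mouse gastrocnemius, 39 in all, were followed in muscle with and without Nogo: the regulators of sterol and fatty acid synthesis, and the enzymes that build cholesterol, fatty acids and triglycerides. They are a list of symbols matched to the gene identifiers of the deposited table, with no threshold on any measured value, and all 39 were found among its 12353 genes. By role they comprise 5 regulators, 13 genes of sterol synthesis, 7 of fatty acid synthesis, 8 of elongation and desaturation and 6 of triglyceride assembly.

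Muscle RNA came from 3 Nogo+/+ mice (wild-type, Samples 1 to 3) and 3 Nogo-/- mice (knockout, Samples 4 to 6), each a biological replicate, under a shared 12 h light-dark cycle with free access to water. The Nogo-/- line was obtained from another laboratory. The strain, sex, age and hour of collection of these 6 mice, and whether the groups were littermates, are not given in the sources used here, nor is any treatment. A separate injury experiment used male 8-week-old mice with C57BL/6 J as the Nogo+/+ group, and whether the sequenced mice were of the same kind is not stated. Levels are FPKM (fragments per kilobase of transcript, scaled to the mapped fragments of the library), a value per transcript length, so that levels of different genes can be set side by side. Differences are Nogo-/- minus Nogo+/+ on the scale of log2(FPKM + 1) after quantile normalization, which understates the change of genes with low FPKM, and each is given with its standard error (SE). They were tested with limma across all 12353 genes, with a threshold of 0.05 on the adjusted p.

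Cells make sterols and fatty acids from acetyl-CoA. The factors SREBP-1 and SREBP-2, encoded by *Srebf1* and *Srebf2*, are held in the endoplasmic reticulum by the INSIG proteins while sterols are plentiful, and are released and cleaved to turn on the synthesis genes when sterols run low. Sugar-responsive ChREBP, encoded by *Mlxipl*, acts with SREBP-1 on the fatty acid genes, and muscle fibers esterify fatty acids into triglyceride droplets that serve as fuel, as do the adipocytes that lie between them.

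The knocked-out gene and the tissue label were checked first. *Rtn4*, the gene of all Nogo isoforms (GRCm38, chromosome 11, 29692947 to 29744331), had an FPKM of 414, 429 and 425 in the Nogo+/+ mice and 0.423, 0.312 and 0.368 in the Nogo-/- mice, a difference of -8.40 (SE 0.08, limma adjusted p = 2.08e-10). Depth was similar in all libraries, at about 13518000 to 14438000 fragments in the Nogo+/+ group and 13783000 to 14482000 in the Nogo-/- group, and a transcript of 2 kb with an FPKM of 1 then rests on about 27.7 fragments. The 8 markers of fast muscle fibers summed to 30623 to 31284 FPKM and 28884 to 30809 FPKM in the 2 groups, and 0 of them passed the test. Quantile normalization gives the highest-ranked genes the same values in every library. For *Acta1*, *Ckm*, *Myh4* and *Tnnt3*, each with a difference of -0.00, the test therefore could not show a change. The mean FPKM of *Myh4*, for example, was 2999 in the Nogo+/+ mice and 2747 in the Nogo-/- mice. No hepatocyte marker of the 4 listed was in the table. One library stood apart: 9 skin epithelium markers summed to 324 FPKM in Sample 6, against 6.74 to 21.3 in the Nogo+/+ mice and 8.79 and 17.3 in Samples 4 and 5. Of these, *Krt10*, *Dmkn*, *Sbsn* and *Krtdap*, which had the smallest p of that list, reached 53.9, 32.6, 35.1 and 48.9 FPKM in Sample 6. Among the list, *Krt5*, *Krt14* and *Krt1* were listed at 0 in Sample 1 and *Lor* at 0 in Sample 4, and 0 of 9 passed the test. Differences that Sample 6 sets are also given without it.

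Promoter sequence is shown for 3 members that fell, 2 of which, *Srebf2* and *Insig1*, belong to the same feedback loop, and for *Hmgcs1*, a sterol synthesis gene that did not pass the test and whose window holds a sterol response element. The windows are from RefSeq on GRCm38.p6, from 250 bases before to 50 bases after the start of transcription, 5′ to 3′. They are chr15:82147019-82147318 (+ strand) for *Srebf2*, chr5:28071162-28071461 (+ strand) for *Insig1*, chr15:84167566-84167865 (+ strand) for *Pnpla3* and chr13:119690101-119690400 (+ strand) for *Hmgcs1*. Capitals mark the sterol response element TCACNCCAC, the E-box CACGTG, the NF-Y box CCAAT and the Sp1 box GGGCGG, each on either strand, and no 2 of the marked sites overlap.
Srebf2: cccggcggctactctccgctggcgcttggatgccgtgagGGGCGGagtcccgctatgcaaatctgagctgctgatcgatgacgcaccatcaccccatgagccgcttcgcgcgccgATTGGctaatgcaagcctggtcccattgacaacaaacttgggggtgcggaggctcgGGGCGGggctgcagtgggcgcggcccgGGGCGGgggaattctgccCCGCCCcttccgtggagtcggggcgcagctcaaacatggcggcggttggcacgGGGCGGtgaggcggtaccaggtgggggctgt
Insig1: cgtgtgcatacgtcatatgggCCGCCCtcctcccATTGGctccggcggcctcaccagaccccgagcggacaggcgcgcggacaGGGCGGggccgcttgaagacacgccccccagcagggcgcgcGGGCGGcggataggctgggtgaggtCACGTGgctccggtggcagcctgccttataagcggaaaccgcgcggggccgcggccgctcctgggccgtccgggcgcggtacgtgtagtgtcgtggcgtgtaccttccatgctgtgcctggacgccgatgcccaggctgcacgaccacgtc
Pnpla3: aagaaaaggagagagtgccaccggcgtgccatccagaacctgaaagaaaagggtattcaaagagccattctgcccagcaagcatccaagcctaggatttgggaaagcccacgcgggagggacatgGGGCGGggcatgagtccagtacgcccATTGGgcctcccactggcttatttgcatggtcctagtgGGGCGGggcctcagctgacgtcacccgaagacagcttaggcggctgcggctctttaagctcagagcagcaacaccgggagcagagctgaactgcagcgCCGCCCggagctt
Hmgcs1: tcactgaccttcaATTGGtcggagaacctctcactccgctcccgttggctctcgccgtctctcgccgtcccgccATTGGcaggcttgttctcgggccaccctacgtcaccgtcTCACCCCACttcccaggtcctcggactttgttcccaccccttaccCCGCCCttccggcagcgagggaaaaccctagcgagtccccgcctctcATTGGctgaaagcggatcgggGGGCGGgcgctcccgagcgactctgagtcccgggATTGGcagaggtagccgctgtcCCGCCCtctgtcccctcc
Positions are counted from 1 at the first transcribed base and from -1 at the base before it, and give the leftmost base of a site. The *Hmgcs1* window holds a sterol response element at -137, 4 NF-Y boxes at -237, -176, -45 and 11, and 3 Sp1 boxes. The *Srebf2* window holds 1 NF-Y box at -135 and 5 Sp1 boxes, that of *Insig1* an E-box at -101, 1 NF-Y box at -216 and 3 Sp1 boxes, and that of *Pnpla3* 1 NF-Y box at -99 and 3 Sp1 boxes. In none of these 3 windows were the letters TCACNCCAC found, which says nothing of sites outside them or of sites with other letters inside them. The *Srebf2* window holds tcaccccat, which differs from that motif only in the last letter and is not marked. *Lpin1*, which also fell, had a window with none of the 4 motifs, and *Scd2* had no entry.

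RefSeq windows were at hand for 31 of the 39 members, with 41 windows between them, while *Sqle*, *Fdft1*, *Fdps*, *Fads1*, *Scd1*, *Scd2*, *Dgat1* and *Dgat2* had no entry. The sterol response element was in 2 of the 41 windows (4.88%), those of *Hmgcs1* and *Mlxipl*, against 1.24% of all 32851 windows. NF-Y boxes were in 27 member windows (65.9%, against 37.4% of all) and Sp1 boxes in 28 (68.3%, against 35.7%). E-boxes were in 5 (12.2%, against 7.15%), those of *Dhcr7*, *Elovl5*, *Insig1*, *Mlxipl* and *Sc5d*. These shares describe the letters only and were not tested.

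Lipid-making genes changed in both directions in the Nogo-/- muscles. The regulators *Srebf2* and *Insig1*, the desaturase *Scd2*, and the triglyceride genes *Lpin1* and *Pnpla3* fell, whereas the squalene synthase *Fdft1* and the last enzyme of triglyceride synthesis *Dgat2* rose. Of the 39 members, 7 passed the test (17.9%, against 4.64% of all genes tested), 2 of them higher (1.89% of all genes) and 5 lower (2.75% of all genes), and 32 did not pass. Nearly as many members had a positive difference (19) as a negative one (20), and their median was -0.00, against -0.01 over all genes. The median size of the difference, regardless of sign, was 0.19 for the members and 0.10 for all genes. Groups did not overlap on the normalized scale in 16 members (41.0%, against 26.0% of all genes), 7 of them higher and 9 lower in the Nogo-/- mice. At an unadjusted p under 0.05 there were 15 members (38.5%, against 20.5% of all genes). The members were chosen with earlier results of these data known. Their shares beside those of all genes are therefore a description and cannot show that lipid genes changed more than others. Without quantile normalization the changed genes as a whole turned from 40.7% higher to 56.3% higher, while the members stayed at 2 higher and 5 lower. With 3 mice in a group, most calls did not hold with certain libraries left out. Of the 39 members 1, *Dgat2*, passed without Sample 2, and 2 passed without Sample 3. The calls over all genes were then 188 and 192 in place of 573. Such a fit also has fewer mice, and the differences moved less than the calls. Without Sample 2 that of *Lpin1* stayed at -0.34, and that of *Srebf2* was -0.40 in place of -0.47. The part of the lower number of mice in the lost calls was not tested.

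**Figure D1:**
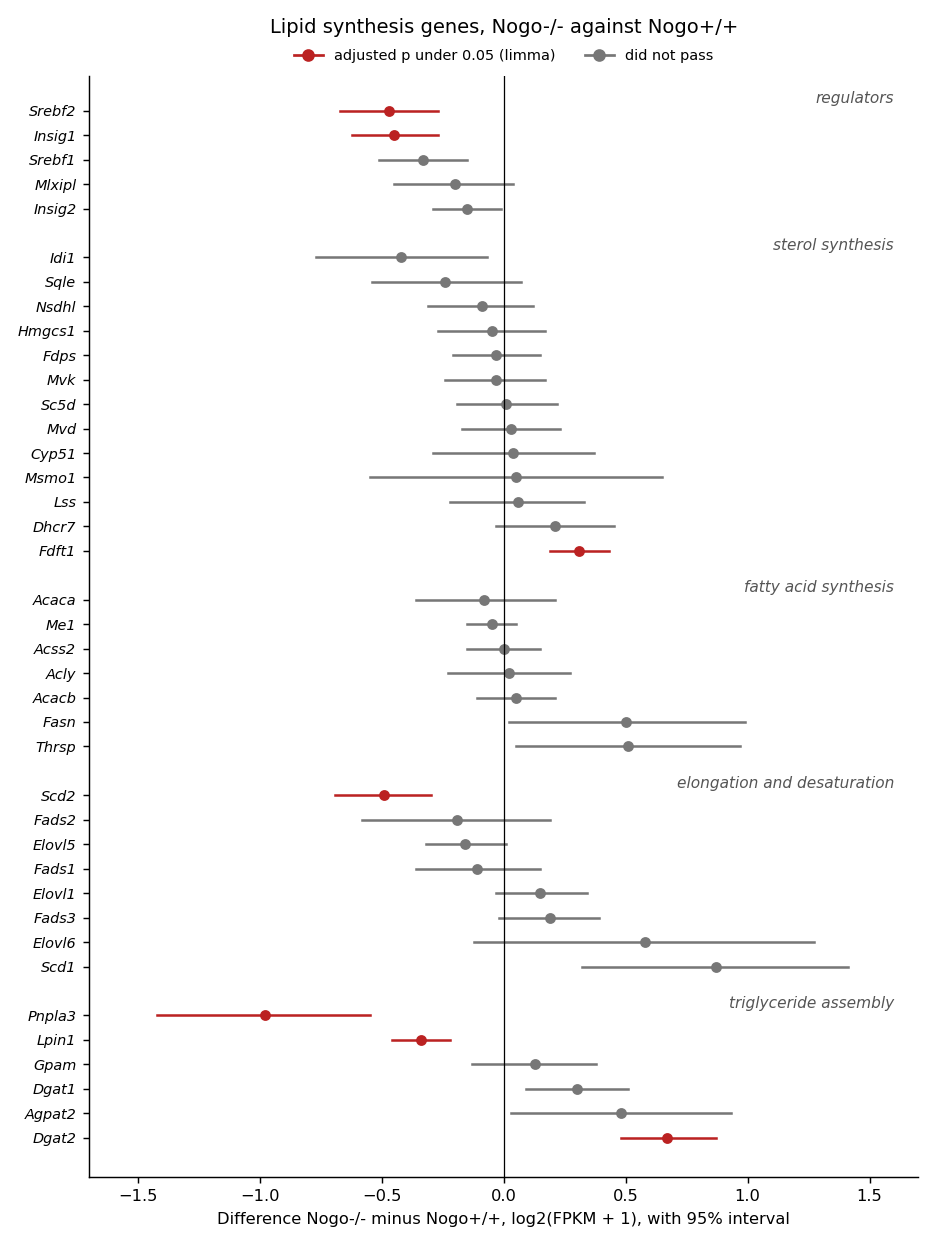
Difference between Nogo-/- and Nogo+/+ muscle on the log2(FPKM + 1) scale for each of the 39 members, grouped by role, with points for limma estimates and bars for 95% intervals, and red for an adjusted p under 0.05. All 5 regulators lie left of 0, the 13 sterol synthesis genes gather around 0, and triglyceride assembly spreads from -0.98 for *Pnpla3* to 0.67 for *Dgat2*.

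Regulators had negative differences in the Nogo-/- muscles. Of the 5, 2 fell, none rose and 3 did not pass, all 5 differences were negative, and the median was -0.33. *Srebf2*, the factor of sterol synthesis (chromosome 15, 82147181 to 82205379), had an FPKM of 9.59, 11.6 and 10.8 in the Nogo+/+ mice and 7.62, 7.34 and 8.04 in the Nogo-/- mice. Every Nogo-/- value lay below every Nogo+/+ value, and the mean went from 10.7 ± 1.01 (SD, n = 3) to 7.66 ± 0.352 (SD, n = 3). The difference was -0.47 (SE 0.09, 95% interval -0.67 to -0.27, limma adjusted p = 0.0225). It did not pass when Sample 2, 3, 4 or 5 was left out, with limma adjusted p up to 0.0943 and a difference of -0.40 or lower throughout.

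*Insig1* (chromosome 5, 28071363 to 28078662) encodes an anchor of the SREBPs in the endoplasmic reticulum while sterols are plentiful, and is itself an SREBP target. It had an FPKM of 7.47, 8.36 and 8.58 against 5.66, 6.10 and 5.88. The groups did not overlap, and the Nogo-/- mean was 0.723 of the Nogo+/+ mean (8.14 ± 0.587 and 5.88 ± 0.219, SD, n = 3 each). The difference was -0.45 (SE 0.08, 95% interval -0.62 to -0.27, limma adjusted p = 0.0173) and did not pass without Sample 2, 3 or 4 (limma adjusted p up to 0.0910). Its relative *Insig2*, which anchors the SREBPs in the same way, stood at 26.4, 28.0 and 27.8 FPKM against 25.4, 25.1 and 26.3, with no overlap but a difference of only -0.15 (SE 0.06, limma adjusted p = 0.211).

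*Srebf1*, the SREBP of the fatty acid genes, had 22.2, 22.8 and 22.9 FPKM in the Nogo+/+ mice and 21.1, 18.2 and 16.3 in the Nogo-/- mice. The Nogo+/+ values were tight, the Nogo-/- values spread below them, and Sample 4 came closest. The difference of -0.33 (SE 0.08, 95% interval -0.51 to -0.15) did not pass the test (limma adjusted p = 0.0603). It passed without Sample 4, at -0.41 (limma adjusted p = 0.0207), and with sample weights (limma adjusted p = 0.0347). When any other library was left out it did not pass (limma adjusted p up to 0.205), nor without quantile normalization, at -0.28 (limma adjusted p = 0.121). *Mlxipl*, the gene of ChREBP, had the highest level of the regulators, 54.8, 44.8 and 45.1 FPKM against 46.1, 47.4 and 35.8, and its groups overlapped (difference -0.20, SE 0.11, limma adjusted p = 0.337).

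Sterol synthesis had 1 changed gene. Of 13 genes, *Fdft1* rose, none fell and 12 did not pass, with a median difference of 0.01. *Fdft1*, or squalene synthase, joins farnesyl pyrophosphate into squalene, the first step that leads only to sterols. It had an FPKM of 34.1, 34.1 and 36.0 in the Nogo+/+ mice and 43.4, 47.2 and 43.3 in the Nogo-/- mice. The groups were far apart for their spread, with means of 34.7 ± 1.11 and 44.6 ± 2.21 (SD, n = 3 each), a ratio of 1.29. Its difference was 0.31 (SE 0.05, 95% interval 0.19 to 0.43, limma adjusted p = 0.0160), and it did not pass without Sample 1, 2 or 3 (limma adjusted p up to 0.0828, differences of 0.27 to 0.34 over all 6 libraries left out).

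The *Fdft1* value carries a limit from its position (chromosome 14, 63145150 to 63179578, minus strand). Of its 4227 exon bases, 774 (18.3%) lie on exons of the cathepsin gene *Ctsb* on the other strand, and 26.5% of its 50-base words also occur in other genes, 725 in *Ctsb* and 396 in the predicted gene *Gm6781*. The libraries were stranded, but the strand setting of the quantification is not given in the sources used here, so reads of the overlap may be shared. *Ctsb* itself had 82.0, 82.3 and 85.7 FPKM against 91.3, 90.9 and 86.5, a difference of 0.06 (SE 0.04, limma adjusted p = 0.449). That did not pass, but every Nogo-/- value lay above every Nogo+/+ value, the same direction as for *Fdft1*.

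Other steps of the sterol pathway did not pass. *Idi1*, the isomerase of isopentenyl pyrophosphate, was at 2.16, 2.83 and 1.67 FPKM against 1.19, 1.53 and 1.59. Its groups did not overlap, by a margin of less than the spread within each, and its difference of -0.42 (SE 0.15, limma adjusted p = 0.173) did not pass. *Dhcr7*, which makes cholesterol in the final step of one branch of the pathway, had 4.70, 4.38 and 3.60 FPKM against 5.04, 4.83 and 5.63, without overlap and with a difference of 0.21 (SE 0.10, limma adjusted p = 0.300). The 95% intervals of the 12 genes that did not pass differed in width, and their outermost ends were -0.77 for *Idi1* and 0.65 for *Msmo1*. *Hmgcs1*, which condenses acetyl-CoA units at the head of the pathway, had 14.5, 15.2 and 15.5 FPKM against 14.0, 14.1 and 17.3, and *Fdps*, which makes farnesyl pyrophosphate, 18.4, 18.5 and 22.3 against 19.4, 20.4 and 20.1. Both overlapped, as did *Mvk*, *Mvd*, *Sqle*, *Lss*, *Cyp51*, *Msmo1*, *Nsdhl* and *Sc5d*. A share of 11.6% to 26.2% of the 50-base words of *Hmgcs1*, *Idi1* and *Fdps* also occurs in other genes, so that their levels are less certain.

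Among the Nogo-/- mice, Sample 6 carried the highest sterol values. It held the top level of 7 of the 13 genes, and Sample 5 the bottom level of 5. *Msmo1*, a methyl sterol oxidase, reached 8.76 FPKM in Sample 6, while the other 5 libraries lay between 3.73 and 6.32, and its difference was 0.05 with Sample 6 and -0.28 without it, neither of which passed. *Cyp51* (3.17 FPKM), *Lss* (1.88) and *Hmgcs1* (17.3) were also highest there. Without Sample 6 their differences went from 0.04, 0.06 and -0.05 to -0.12, -0.04 and -0.16, none of which passed. Without Sample 6 the median of the 13 genes was -0.10 in place of 0.01. This is the library in which skin epithelium markers summed to 324 FPKM. The part of skin epithelium in the sterol values of Sample 6 was not tested.

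Fatty acid synthesis held no gene that passed. Its 7 genes had a median difference of 0.02. *Me1*, the malic enzyme that supplies NADPH, was the highest of them, at 87.2 to 90.1 FPKM in Nogo+/+ muscle against 85.2 to 88.5 in Nogo-/- muscle. *Acacb*, the acetyl-CoA carboxylase that muscle uses mainly to control fatty acid oxidation, had 49.0 to 51.7 FPKM against 49.8 to 59.8. Its relative *Acaca*, the carboxylase of synthesis, was far lower at 3.16 to 3.98 FPKM against 2.77 to 4.29. *Acly* and *Acss2*, which make acetyl-CoA from citrate and from acetate, overlapped as well, with differences of 0.02 and -0.00. A share of 28.3% of the 50-base words of *Me1* and 30.4% of those of *Acaca* occurs in other genes, mostly predicted ones.

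The largest differences of this role were those of *Fasn* and *Thrsp*. *Fasn*, the fatty acid synthase, had 15.9, 17.9 and 19.1 FPKM in the Nogo+/+ mice and 37.7, 26.9 and 17.7 in the Nogo-/- mice. Samples 4 and 5 lay above all Nogo+/+ mice, whereas Sample 6 lay among them, and the difference was 0.50 (SE 0.21, 95% interval 0.02 to 0.99, limma adjusted p = 0.226). It passed without Sample 6, at 0.76 (limma adjusted p = 0.0297), but not when any other library was left out. Without Sample 4 it was 0.26 (limma adjusted p = 0.424). *Thrsp*, known as Spot 14 and tied to lipogenesis, had 16.4, 24.6 and 23.3 FPKM against 43.0, 26.5 and 27.6. Its groups did not overlap, Sample 4 was far above the rest, and the difference of 0.51 (SE 0.20, limma adjusted p = 0.201) did not pass. Sample 4 held the top level of 5 of the 7 genes of fatty acid synthesis.

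Adipocyte markers moved with the same libraries. The 10 markers summed to 425 to 511 FPKM among the Nogo+/+ mice, against 939, 599 and 487 in Samples 4, 5 and 6, and 9 of the 10 had a positive difference, none of which passed. *Plin1*, which coats the fat droplet of adipocytes, had 5.44, 7.25 and 7.38 FPKM against 19.7, 13.3 and 8.33, *Cidec* a difference of 1.18 (limma adjusted p = 0.0525) and *Lep* one of 0.67 (limma adjusted p = 0.0956). The remaining marker, the glycerol channel *Aqp7*, fell by 0.56 (limma adjusted p = 0.0390) and did not pass without Sample 1, 2, 3 or 5. No adipocyte marker was at 0 in any library. In bulk muscle, fewer cells of a type and less RNA per cell cannot be told apart, and the part of adipocyte RNA in the values of *Fasn*, *Thrsp* and the desaturase and triglyceride genes was not tested.

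Of the stearoyl-CoA desaturase paralogs, 1 fell and the other did not pass. *Scd2*, which puts a double bond into saturated fatty acids (chromosome 19, 44293674 to 44306864), fell from 13.1, 15.0 and 15.2 FPKM to 11.3, 10.4 and 9.25. The groups did not overlap, and the means were 14.4 ± 1.20 and 10.3 ± 1.04 (SD, n = 3 each). Its difference was -0.49 (SE 0.09, 95% interval -0.69 to -0.30, limma adjusted p = 0.0173), and it did not pass without Sample 2 or 3 (limma adjusted p = 0.0912 and 0.0882). *Scd1*, the neighbouring desaturase (chromosome 19, 44394455 to 44407879), had 31.2, 52.6 and 56.0 FPKM in the Nogo+/+ mice and 111, 86.6 and 64.7 in the Nogo-/- mice. All Nogo-/- values were the higher ones, with means of 46.6 ± 13.4 and 87.5 ± 23.2 (SD, n = 3 each), a ratio of 1.88. With this wide spread the difference of 0.87 (SE 0.24, 95% interval 0.32 to 1.41) did not pass the test (limma adjusted p = 0.0853), nor did it when any 1 library was left out (limma adjusted p of 0.0553 to 0.209). Its order among the Nogo-/- mice, Sample 4 over Sample 5 over Sample 6, was that of the summed adipocyte markers. The 2 genes share 145 of their 50-base words, and words found in any other gene are 4.56% of those of *Scd1* and 3.97% of those of *Scd2*.

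The other 6 genes of elongation and desaturation did not pass, and the median of the 8 was 0.02. *Elovl5*, an elongase of polyunsaturated fatty acids, had 8.20, 8.16 and 7.84 FPKM against 7.27, 7.02 and 7.80, so the groups were apart by a narrow margin (difference -0.16, SE 0.07, limma adjusted p = 0.260). *Fads3* had 2.95, 2.76 and 2.90 FPKM against 3.92, 3.74 and 2.91, apart on the normalized scale but not in FPKM (difference 0.19, limma adjusted p = 0.286). For *Elovl1*, an elongase of very long chains, it was the reverse, with 9.43, 8.99 and 9.03 FPKM against 11.2, 9.57 and 11.3 (difference 0.15, limma adjusted p = 0.327). *Elovl6*, which lengthens palmitate, was the lowest of the members in the Nogo+/+ mice, at 0.523, 1.06 and 0.616 FPKM against 1.24, 0.859 and 3.38, and Sample 6 stood far above the rest (difference 0.58, SE 0.30, limma adjusted p = 0.333, and 0.20 without Sample 6). *Elovl4*, an elongase of skin lipids outside the 39 that was picked out after its values were seen, was at 7.88 FPKM in Sample 6 and at 0.0692 to 0.838 in the others. *Fads1* and *Fads2*, the desaturases of polyunsaturated fatty acids, overlapped, with differences of -0.11 and -0.19.

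Triglyceride assembly held changed genes in both directions. Of 6 genes, *Dgat2* rose, *Lpin1* and *Pnpla3* fell, 3 did not pass, and the median was 0.21. *Dgat2*, which adds the last fatty acid to diacylglycerol (chromosome 7, 99153658 to 99182719), had 26.8, 25.8 and 24.4 FPKM in the Nogo+/+ mice and 44.1, 48.4 and 37.2 in the Nogo-/- mice. The groups did not overlap, and the means were 25.6 ± 1.23 and 43.3 ± 5.69 (SD, n = 3 each), a ratio of 1.69. Its difference was 0.67 (SE 0.08, 95% interval 0.48 to 0.87, limma adjusted p = 0.00424), and among the 7 changed members it alone passed with every library left out in turn (limma adjusted p up to 0.0314). In Sample 6 the adipocyte markers summed to 487 FPKM, within the Nogo+/+ range, whereas *Dgat2* lay above every Nogo+/+ mouse. Of these markers, *Plin1*, *Cidec*, *Lep* and *Lipe* (8.33, 13.1, 1.89 and 17.6 FPKM) also lay above every Nogo+/+ mouse there. *Adipoq*, *Cfd* and *Retn* (17.2, 158 and 8.74 FPKM) lay within the Nogo+/+ range, and *Fabp4* (257 FPKM) was level with its top. *Adrb3* and *Aqp7* lay below every Nogo+/+ mouse. The part of adipocyte RNA in the *Dgat2* values was not tested. *Dgat1*, the other enzyme of that step and unrelated in sequence, had 10.1, 8.16 and 10.6 FPKM against 13.3, 12.0 and 12.0, without overlap and with a difference of 0.30 that did not pass (SE 0.09, 95% interval 0.09 to 0.51, limma adjusted p = 0.112).

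*Lpin1*, the phosphatidate phosphatase lipin-1 that makes diacylglycerol and also acts as a coregulator in the nucleus (chromosome 12, 16535669 to 16610966), was among the more abundant members in muscle. Its FPKM was 60.8, 58.4 and 58.6 in the Nogo+/+ mice and 45.9, 50.5 and 47.7 in the Nogo-/- mice, with means of 59.2 ± 1.33 and 48.0 ± 2.33 (SD, n = 3 each). The groups were clearly apart, and the difference was -0.34 (SE 0.05, 95% interval -0.46 to -0.22, limma adjusted p = 0.00949). It passed with every library left out but Sample 2 (limma adjusted p = 0.0564).

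*Pnpla3*, a droplet protein with triglyceride lipase and acyltransferase activities that SREBP-1 and ChREBP induce in liver (chromosome 15, 84167837 to 84187236), showed the largest difference of the 39. It had 6.97, 9.37 and 10.8 FPKM against 5.85, 3.80 and 3.09, and the Nogo-/- mean was 0.470 of the Nogo+/+ mean (9.05 ± 1.94 and 4.25 ± 1.43, SD, n = 3 each). The groups did not overlap, though Samples 1 and 4 came close. The difference was -0.98 (SE 0.19, 95% interval -1.42 to -0.55, limma adjusted p = 0.0270), and it did not pass without Sample 2, 3, 5 or 6 (limma adjusted p up to 0.119, difference of -0.84 or lower throughout) or in limma without a trend (adjusted p = 0.0615).

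Upstream acyltransferases did not pass. *Agpat2*, which makes phosphatidate and is highly expressed in adipocytes, had 6.04, 7.91 and 7.66 FPKM against 15.1, 10.6 and 7.53, so Samples 4 and 5 were high and Sample 6 lay among the Nogo+/+ mice (difference 0.48, SE 0.20, limma adjusted p = 0.214). *Gpam*, the mitochondrial enzyme of the first acylation, overlapped, with 23.5, 26.8 and 25.5 FPKM against 24.5, 33.3 and 29.7 (difference 0.13, SE 0.11, limma adjusted p = 0.584).

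**Figure D2:**
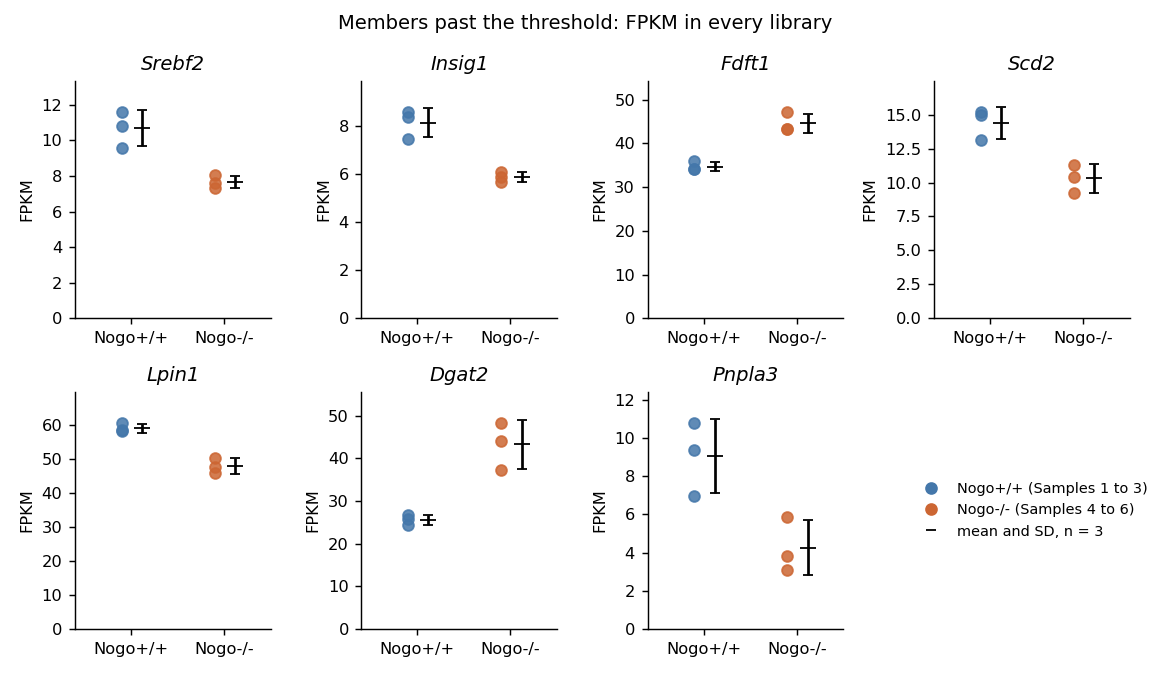
FPKM (vertical axes, from 0) in each library for the 7 members past the threshold, by group on the horizontal axes, with bars for the mean and SD of 3 mice. Points of the groups do not overlap in any panel, and those of *Pnpla3* come closest, with 6.97 in Sample 1 and 5.85 in Sample 4.

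Set side by side mouse by mouse, the roles differed in their pattern. For each role the log2 values were centred on the mean of each gene over the 6 libraries and averaged over its genes, with no test. The regulators scored 0.12, 0.20 and 0.16 in the Nogo+/+ mice and -0.14, -0.16 and -0.19 in the Nogo-/- mice, with no overlap and little spread. Sterol synthesis stood at -0.02, 0.07 and -0.03 against -0.10, -0.07 and 0.15, so that the groups overlapped. Samples 4 and 5 lay below every Nogo+/+ mouse, as for the regulators. The top score was in Sample 6, the library with 324 FPKM of skin epithelium markers. Fatty acid synthesis scored -0.13, -0.02 and -0.05 against 0.26, 0.02 and -0.07, so that it was highest in Sample 4 and within the Nogo+/+ range in Sample 6. Elongation and desaturation (-0.12, 0.01 and -0.04 against 0.11, 0.00 and 0.04) and triglyceride assembly (-0.11, 0.01 and 0.04 against 0.12, 0.06 and -0.11) overlapped between the groups.

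Fatty acid synthesis minus sterol synthesis was -0.11, -0.09 and -0.02 in the Nogo+/+ mice and 0.36, 0.09 and -0.22 in the Nogo-/- mice. The 3 Nogo+/+ mice were alike, while the Nogo-/- mice covered a far wider range with Samples 4 and 6 at its ends. Triglyceride assembly minus sterol synthesis did much the same, at -0.09, -0.06 and 0.06 against 0.21, 0.13 and -0.26. Elongation and desaturation minus sterol synthesis was -0.10, -0.06 and -0.01 against 0.20, 0.08 and -0.11. In all 3 contrasts Samples 4 and 5 were above every Nogo+/+ mouse and Sample 6 below every one. All 3 subtract the same sterol score, 0.15 in Sample 6, so they are not separate observations. Before that subtraction Sample 6 scored -0.07 for fatty acid synthesis, within the Nogo+/+ range, and -0.11 for triglyceride assembly, level with its lowest value. For elongation and desaturation it scored 0.04, above every Nogo+/+ mouse. Sample 4 had the highest adipocyte sum (939 FPKM) and Sample 6 the highest skin epithelium sum (324 FPKM), and their part in these contrasts was not tested. Of the other lists, 9 Schwann cell and myelin markers summed to 252 to 324 FPKM against 264 to 323, and 7 macrophage markers to 42.3 to 60.2 against 40.6 to 63.8, with 0 past the test in either. Of 4 sebaceous gland markers 3 were measured and 0 passed. *Scd3* was at 3.39 FPKM in Sample 6 and at 0.362 or less elsewhere, and *Awat1* at 1.46 and at 0.160 or less. *Mc5r*, with the smallest p of that list, went the other way, at 1.62, 1.34 and 1.85 FPKM against 0.682, 1.37 and 1.12. Its value in Sample 6 lay below every Nogo+/+ mouse.

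**Figure D3:**
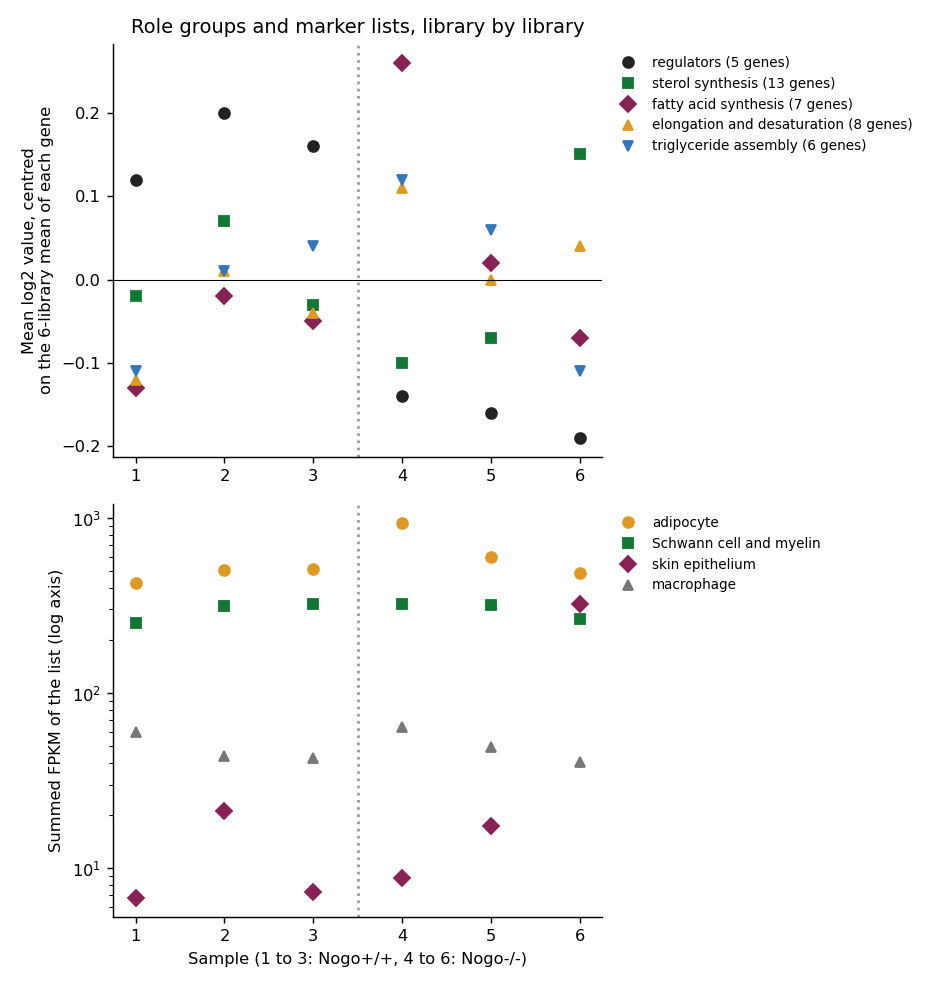
Upper panel, mean centred log2 value of each role group in each of the 6 libraries, and lower panel, summed FPKM of 4 marker lists on a log axis, with a dotted line between the Nogo+/+ and Nogo-/- mice. Regulators lie at 0.12 or above left of the line and at -0.14 or below right of it, fatty acid synthesis peaks in Sample 4 together with adipocyte markers, and sterol synthesis peaks in Sample 6 together with skin epithelium markers.

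Ratios of FPKM within a library compare 2 members without any scaling between libraries. They carry no test, since the pairs were picked with the members' values known. *Scd1* and *Scd2*, like *Dgat2* and *Lpin1*, each lay apart between the groups in opposite directions, so that their ratios had to lie apart too. *Scd1* to *Scd2* was 2.39, 3.50 and 3.67 in the Nogo+/+ mice and 9.81, 8.33 and 7.00 in the Nogo-/- mice, a mean of 3.19 ± 0.698 against 8.38 ± 1.41 (SD, n = 3 each). Each Nogo-/- ratio was higher than all Nogo+/+ ratios. *Dgat2* to *Lpin1* was 0.441, 0.442 and 0.416 against 0.962, 0.959 and 0.779, so that *Dgat2* was well below *Lpin1* in the Nogo+/+ mice and close to it in Samples 4 and 5. *Insig2* to *Insig1* was 3.54, 3.35 and 3.24 against 4.48, 4.12 and 4.47. *Fdft1* to *Fdps*, successive steps of sterol synthesis, was 1.85, 1.84 and 1.61 against 2.24, 2.31 and 2.16. Ratios of *Fdft1* to *Sqle* and of *Fasn* to *Acly* also did not overlap. Those of *Srebf1* to *Srebf2* (1.97 to 2.31 against 2.03 to 2.77), *Dgat2* to *Dgat1* (2.30 to 3.16 against 3.09 to 4.05) and *Acacb* to *Acaca* (12.4 to 16.3 against 11.6 to 19.3) overlapped.

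**Figure D4:**
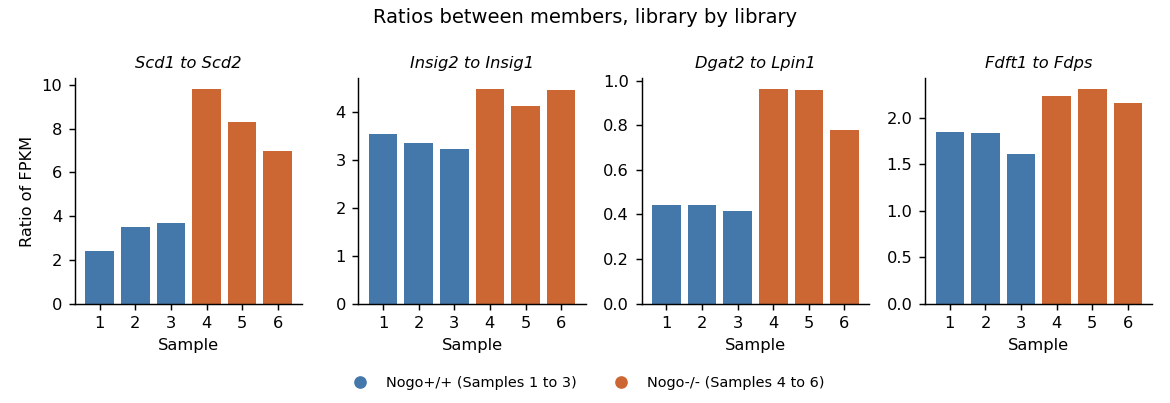
Ratio of FPKM between 2 members (vertical axes, from 0) in each of the 6 libraries, with blue bars for Nogo+/+ and orange bars for Nogo-/- mice. In all 4 panels the 3 Nogo-/- bars are taller than the 3 Nogo+/+ bars, and *Scd1* to *Scd2* goes from 3.67 or less to 7.00 or more.

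Further genes of the same pathways, 50 that are not among the 39, held 3 that passed. Of the 46 in the table, 3 rose (6.52%, against 4.64% of all genes called in either direction), none fell and 43 did not pass, with a median difference of 0.02, and *Elovl2*, *Elovl7*, *Scd4* and *Mogat2* had no row. At an unadjusted p under 0.05 there were 7 (15.2%, against 20.5% of all genes). *Mid1ip1*, the Thrsp-related protein that promotes polymerization of acetyl-CoA carboxylase, rose from 12.5, 12.7 and 13.8 FPKM to 23.5, 30.5 and 32.3, with a difference of 1.02 (SE 0.12, limma adjusted p = 0.00305), and it passed with each library left out. Unlike *Fasn* and *Thrsp*, it was higher in Sample 6 than in Sample 4. A predicted antisense gene covers 25.5% of its exon bases. *Acat2*, the cytosolic thiolase that opens sterol synthesis, rose from 1.65, 1.95 and 2.38 FPKM to 4.24, 3.77 and 3.69 (difference 0.68, SE 0.11, limma adjusted p = 0.0109), which did not pass without Sample 2, and 39.1% of its 50-base words are shared with *Acat3* and *Tcp1*. *Lpin3*, a lipin like *Lpin1*, rose from 2.48, 2.10 and 2.45 FPKM to 3.93, 3.38 and 3.39 (difference 0.41, SE 0.09, limma adjusted p = 0.0346), but did not pass when any 1 library was left out. *Mlxip*, a relative of ChREBP, had 19.8, 20.2 and 21.7 FPKM against 16.4, 18.3 and 18.6, without overlap and with a difference of -0.25 that did not pass (limma adjusted p = 0.0983). On the sterol side 1 of 17 passed and on the fatty acid and triglyceride side 2 of 29.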

How the data were processed

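RNA of gastrocnemius muscle (3 mice per genotype) was turned into stranded polyA libraries with the RNeasy and TruSeq kits and sequenced on a HiSeq instrument. According to the study's methods and the submitters' processing notes, CASAVA 1.8.2, cutadapt 1.4.2, STAR 2.6.1 (GRCm38.p6) and Cufflinks 2.2.1 were used. The values deposited by the authors are FPKM of each gene in each library, restricted to genes that reach 1 in some library. Since FPKM differ from counts, count models were not used. A further 6 columns of log2 values, normalized by the authors, were not used here. Column names carry sample numbers only, and the groups were matched through the headings of a supplementary table that holds the same FPKM, so replicate numbers are unknown.

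The members and lists were chosen with earlier results of these data known. Symbols and positions came from GENCODE M21 on GRCm38 for 12342 of 12353 genes. The FPKM were quantile normalized, 1 was added, and log2 values were compared with limma 3.58.1 in R 4.3.3 (lmFit, eBayes with a trend, two-sided, Benjamini-Hochberg over all genes, threshold 0.05). This replaced the study's combination of permuted statistics. Procedures were tested on simulated data. Depth was recovered from low FPKM of 1408 single-transcript genes, with 93.1% to 95.5% of values within 0.1 of a whole fragment, where chance gives 20%. Tables were handled in Python 3.11.15 with pandas 2.3.3. All 39 members were described, those past the threshold, without overlap or with the smallest p of a role with every value, and up to 4 genes with the smallest p of each other list. Alternatives were no quantile normalization, 0.1 as the pseudocount, a minimum of 1 for the mean FPKM, median ratio scaling, no trend, sample weights, a fold over 1.3 and leaving out each library.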

Additional observations from a re-analysis of the deposited data

How the results depend on the processing

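With the other pseudocount, with the filter on low values, without quantile normalization and with median ratio scaling, the members past the limma threshold numbered 7, with 2 higher and 5 lower, and no member's difference that passed changed sign under any alternative. Without a trend there were 6 and with sample weights 8. With a fold over 1.3 required there were 5, of which 1 was higher (*Dgat2*) and 4 were lower, since *Fdft1* and *Lpin1* fell short of that fold. That normalization left out, the median of the regulators was -0.28. Leaving out each library in turn gave 1 to 7 changed members, 1 to 3 of them higher and 0 to 5 lower, and 188 to 434 changed genes overall. The regulators' median then ran from -0.41 to -0.26 and that of sterol synthesis from -0.10 to 0.02, and the cause was not tested. No paired analysis was possible because no replicate number stands in the column names. With 3 mice in a group and 1 FPKM of a 2 kb transcript at about 27.7 fragments, wide intervals of members such as *Msmo1* and *Elovl6* leave sizeable differences undetected.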
